A study of Oryza sativa with 36 samples.

Results

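The transcripts described here were those whose level in rice roots was higher in zaxinone-treated than in mock-treated seedlings 24 h after application, but not at 2 h or 6 h. They were chosen from measured values. Raw counts of the root libraries were divided by the library total to give CPM (counts scaled to the same library total), and r, the log2 ratio of the zaxinone mean to the mock mean with 0.5 CPM added to each, was computed at each time. A transcript was kept with an r of at least 1 at 24 h, a lowest zaxinone library at least 1.5 times the highest mock library, a zaxinone mean of at least 2 CPM, and an r under 0.3 at both 2 h and 6 h. Of the 28207 transcripts listed in all 3 root tables, 66 met the rule, out of 33024 listed anywhere in the series. The parts of the rule on 24 h alone were met by 215 of the 29628 transcripts listed at that time, and the other 149 of these had an r of 0.3 or more, or no entry, at an earlier time. Because the root libraries chose the members, every root value below is a description, counts of test calls in roots included. Tests that bear on the members were possible only in the shoot libraries, which the rule did not use.

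Seedlings of the wild-type rice cultivar Nipponbare, 3 weeks old and grown hydroponically in half-strength modified Hoagland solution, received zaxinone at 5 µM in the medium or were mock-treated. Roots and shoots were collected separately at 2, 6 and 24 h, and each of the 12 combinations of treatment, tissue and time had 3 RNA-seq libraries. Both treatments shared the genotype and the nutrient solution, and the library titles of both carry the mark "+P". The study describes the 3 libraries of a group as biological replicates. How many plants went into a library was not stated in the labels, and the spread between replicates may still be partly technical.

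Zaxinone is an apocarotenoid, a cleavage product of carotenoids, which acts as a growth regulator in rice: it is required for normal growth, and its application promotes root growth and lowers the level of strigolactones, hormones that also signal to symbiotic fungi and parasitic weeds. Only 2 of the members carry a function in the sources used here, both as glucosyltransferases of the pathway list that the study assembled for cytokinin glucosides. Enzymes of this kind move glucose from UDP-glucose onto small acceptors such as flavonoids, anthocyanins and plant hormones. For cytokinins, the transfer gives storage or inactive forms of the hormone. The remaining members are known here only by their locus identifiers, in which the digits after "os" give the chromosome and those after "g" the order along it. No sequence of a member was at hand, and none is printed.

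One root library stood apart from the rest and weighed on every root value at 24 h. On log2 CPM at 24 h, the correlation of zaxinone replicate 2 with each root library besides itself was 0.918 to 0.934, and that within the remaining 5 was 0.983 to 0.993. It was also the shallowest root library, with 11261992 counts in genes, and the deepest root library held 36469854. The shoot libraries held 13229890 to 27246458 counts. The tissue labels were checked with 73 transcripts at 100 CPM or more in mock shoots and under 1 CPM in mock roots at 2 h. Their summed level was 20.5 to 26.8 CPM in the zaxinone roots and 16.4 to 67.0 CPM in the mock roots of 24 h, against 14080 CPM or more in every shoot library, so shoot material was scarce in all root libraries and did not differ in one direction with the treatment. The 69 transcripts of the opposite kind summed to 21230 to 26753 CPM in zaxinone roots and to 21415 to 22668 CPM in mock roots at 24 h, with zaxinone replicate 2 the highest. These bulk values cannot tell a change in the number of cells of one type from a change in RNA per cell.

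Most members were transcripts of low to moderate abundance. At 24 h the zaxinone mean was under 10 CPM in 26 members, 10 to 100 CPM in 31 and 100 CPM or more in 9, with a median of 17.9 CPM. The mock mean had a median of 3.18 CPM and was under 1 CPM in 18 members. The ratio r at 24 h lay between 1.003 and 7.13 with a median of 1.69, was 2 or more in 23 members and was 3 or more in 8. At 2 h the members' r was -0.81 to 0.27 (median 0.03) and at 6 h it was -0.48 to 0.30 (median 0.03), the upper ends being set by the rule. Over the 19879 transcripts with a zaxinone mean of 2 CPM or more at 24 h, the median r was -0.04 at 24 h.

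The 3 zaxinone libraries of 24 h did not carry the difference evenly. Zaxinone replicate 2 was the highest of the 3 in 55 of the 66 members (83.3%), against 41.5% of the 19879 transcripts at the same level and 80.5% of the other 149 transcripts raised at 24 h. It exceeded the mean of the other 2 zaxinone libraries by a median of 2.62-fold over the members, with a range of 0.471- to 12.8-fold. Zaxinone replicate 3 was the lowest of the 3 in 44 members (66.7%, against 18.9% of the 19879 transcripts and 46.3% of the other 149 raised at 24 h). Taken singly against the mock mean, replicate 1 had a median log2 ratio of 1.17, replicate 2 of 2.45 and replicate 3 of 0.93. In 20 members each of the 3 zaxinone libraries reached a log2 ratio of 1 by itself. The median coefficient of variation (CV, the SD as a percentage of the mean) over the members was 64.9% in the zaxinone libraries and 16.1% in the mock libraries. The zaxinone libraries were also the more variable over the other 149 transcripts (51.3% in zaxinone and 17.3% in mock) and over all 19879 (33.2% in zaxinone and 10.7% in mock).

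**Figure D1:**
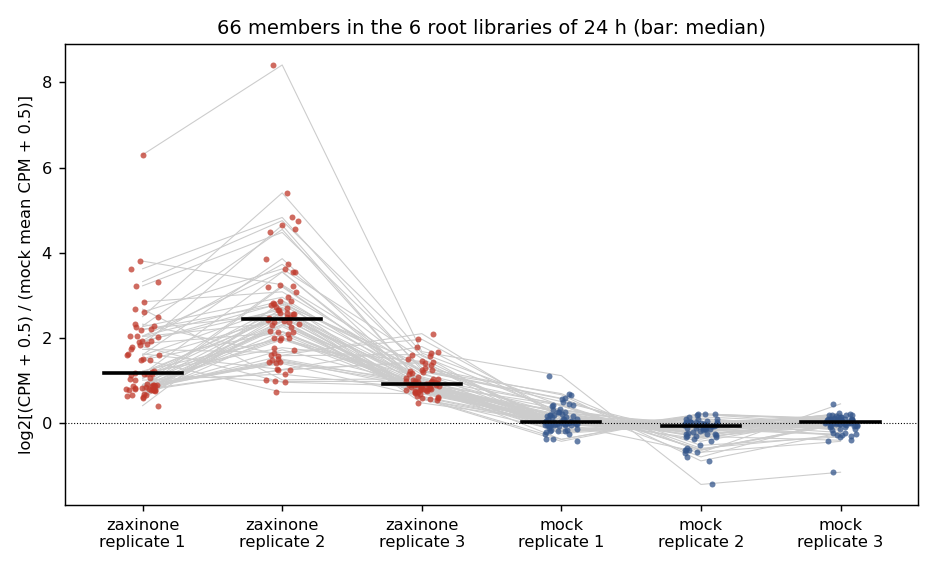
Each point is 1 of the 66 members in 1 root library of 24 h, as log2 of its CPM plus 0.5 over the mock mean plus 0.5; grey lines join the libraries of a member and black bars are medians. All zaxinone points lie above 0, with medians of 1.17, 2.45 and 0.93 in replicates 1, 2 and 3.

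With zaxinone replicate 2 left out, r at 24 h fell in 59 of the 66 members. Its median became 1.15, its range 0.52 to 5.36, and 39 members kept an r of at least 1. When the whole rule was applied without that library, 43 transcripts met it, of which 35 were among the 66; 27 of the 31 members lost had an r under 1, and 13 had a mean of the remaining zaxinone libraries under 2 CPM. Leaving out zaxinone replicate 3 instead gave 226 transcripts, all 66 members among them. In edgeR's quasi-likelihood test across all transcripts, 0 of the 66 members passed an adjusted p of 0.05 upwards in roots at 24 h, where 0.00423% of the 23616 transcripts tested passed. At an unadjusted p under 0.05, 66 of 66 passed (6.22% of all), and DESeq2 called 54 of 66 after adjustment (1.42% of all). Without zaxinone replicate 2, edgeR called 26 of the 66 (0.612% of all), and without zaxinone replicate 3 it called 7 (0.179% of all). The rule selected on this same contrast, so nothing is read from how the members' counts compare with the shares over all transcripts.

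**Figure D2:**
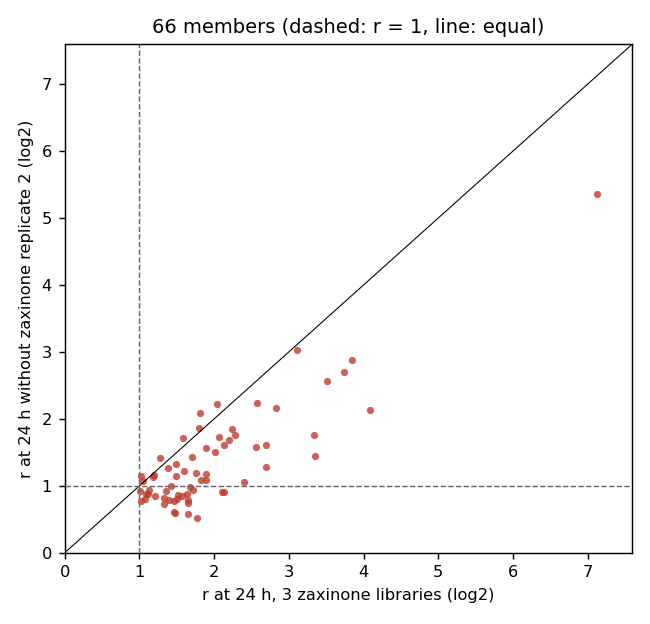
Each point is 1 member, with r at 24 h from all 3 zaxinone libraries on the horizontal axis and r without zaxinone replicate 2 on the vertical axis, both log2; the dashed lines mark an r of 1. Most points lie under the line of equal values, and 39 of 66 stay at or above 1.

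The largest r belonged to loc_os06g01590.1 on chromosome 6, at 7.13. It had 136, 587 and 5.08 CPM in the zaxinone roots of 24 h, against 3.28, 0.145 and 0.287 CPM in the mock roots. The groups did not overlap, but the lowest zaxinone library was 1.55 times the highest mock library, while the zaxinone libraries spanned more than the whole distance between the group means. Without zaxinone replicate 2 its r was 5.36. In the 12 root libraries of 2 h and 6 h it stayed between 0.0746 and 2.66 CPM.

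The second, loc_os09g30490.1, had 9.36, 73.2 and 4.96 CPM in the zaxinone roots, against 1.82, 0.628 and 1.27 CPM in the mock roots (r of 4.09, and 2.14 without replicate 2). For loc_os01g52900.1 the zaxinone roots gave 12.3, 28.9 and 1.96 CPM and the mock roots 0.973, 0.338 and 0.287 CPM. Both had replicate 2 far above the others and replicate 3 nearest to the mock roots. The fourth, loc_os03g22170.1, was more abundant, with 109, 296 and 32.4 CPM in zaxinone roots and 12.7, 8.26 and 10.5 CPM in mock roots (r of 3.74, and 2.70 without replicate 2). Next came loc_os08g08100.1 (33.2 ± 29.8 CPM in zaxinone roots and 2.46 ± 1.59 CPM in mock roots, SD, n = 3 each). Its levels at 2 h and 6 h were under 0.5 CPM in each library.

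The sixth, loc_os05g32150.1, rested on few reads: 45, 166 and 16 counts in the zaxinone libraries, against 7, 2 and 0 counts in the mock libraries. The 2 remaining members with an r of 3 or more were loc_os04g54220.1 (16.8 ± 20.1 CPM in zaxinone and 1.22 ± 0.594 CPM in mock roots) and loc_os02g55900.1 (9.04 ± 6.48 CPM in zaxinone and 0.606 ± 0.602 CPM in mock roots, SD, n = 3 each). The last of these differed from the rest of the group in that replicate 1 was its highest zaxinone library, at 15.0 CPM, and its r without replicate 2 was 3.03. All 8 shared one arrangement of libraries: zaxinone replicate 3 was the lowest zaxinone library and mock replicate 1 the highest mock library in 8 of 8. Over all members mock replicate 1 was the highest mock library in 32 of 66 (48.5%), against 38.7% of the 19879 transcripts. The lowest zaxinone library exceeded the highest mock library by 1.52- to 2.82-fold in these 8.

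By level, the first member was loc_os11g05050.1, with 424, 719 and 379 CPM in the zaxinone roots of 24 h, against 180.0, 174 and 187 CPM in the mock roots. Its r was 1.49, and 1.15 without zaxinone replicate 2. At 2 h it had 102 ± 12.8 CPM in zaxinone and 114 ± 21.9 CPM in mock roots, and at 6 h 308 ± 73.7 CPM in zaxinone and 277 ± 35.4 CPM in mock roots (SD, n = 3 each). The lowest zaxinone library of 24 h was thus below the highest library of 6 h (393 CPM). The mock libraries of 24 h were below all those of 6 h but above all those of 2 h. The next, loc_os07g41350.1, had a different course. It gave 345, 526 and 195 CPM in zaxinone roots and 77.8, 64.3 and 83.0 CPM in mock roots at 24 h, whereas its highest library at 2 h or 6 h was 21.1 CPM, so that both treatments were higher at 24 h than earlier. The r of this transcript was 2.24, and 1.84 without replicate 2.

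Among the other abundant members, loc_os01g39890.1 (166, 795 and 98.8 CPM in zaxinone roots, against 53.2, 52.3 and 57.0 CPM in mock roots) and loc_os01g52260.1 (160, 553 and 94.4 CPM against 40.2, 44.6 and 38.6 CPM) had the same r of 2.69. The mock libraries of each lay close together, and the lowest zaxinone library was well above them, but replicate 2 held over 3 times the level of replicate 1 in both. For loc_os12g42200.1 the zaxinone roots had 223, 473 and 235 CPM and the mock roots 134, 119 and 110.3 CPM. It was the only member among the 69 root-enriched transcripts, at 0.154 CPM or less in each shoot library. The 9 members at 100 CPM or more made up 63.7% of the members' summed zaxinone level at 24 h.

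A smaller number of members differed between the treatments by about the same amount in every library. The smallest CV over the zaxinone libraries was that of loc_os03g09940.1, 7.28%, with 74.8, 66.2 and 66.1 CPM in zaxinone roots, against 41.7, 30.3 and 27.4 CPM in mock roots. For loc_os04g57810.1 the values were 289, 318 and 251 CPM in zaxinone roots and 139, 132 and 157 CPM in mock roots. The low-abundance loc_os03g08900.1 had 7.06, 6.66 and 8.40 CPM in zaxinone roots and 2.11, 1.30 and 1.88 CPM in mock roots, an r of 1.80 that became 1.86 without replicate 2. Likewise loc_os09g17910.1 (6.43, 4.88 and 7.32 CPM in zaxinone against 2.04, 1.74 and 1.43 CPM in mock roots) and loc_os02g40710.1 (17.2, 26.1 and 20.8 CPM against 7.17, 6.33 and 8.31 CPM) kept an r of 1.72 and 1.33 without that library. In these 5 the CV did not exceed 21.1%, and replicate 2 was the highest zaxinone library in 2 of 5. The 3 largest CVs, 138%, 131% and 126%, were those of loc_os05g32150.1, loc_os09g30490.1 and loc_os06g01590.1.

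The only members with a named function in the sources used here were the glucosyltransferases loc_os07g31960.1 and loc_os11g04860.1. For loc_os07g31960.1, which the study lists with the transfer of glucose to the 5-O position of luteolinidin and apigeninidin, pigments of the 3-deoxyanthocyanidin class, the zaxinone roots of 24 h had 6.65, 36.8 and 7.52 CPM and the mock roots 3.18, 3.24 and 4.26 CPM. Its r of 2.11 came largely from replicate 2, and was 0.90 without it. For loc_os11g04860.1, listed with the 5-O-glucosylation of cyanidin-3-O-rutinoside, an anthocyanin, the zaxinone roots had 7.69, 4.44 and 6.52 CPM, against 1.26, 1.06 and 1.06 CPM in the mock roots. Here replicate 2 was the lowest zaxinone library, still 3.51 times the highest mock library, and r was 2.04 with it and 2.22 without it. At 6 h this transcript had 2.90, 1.79 and 1.10 CPM in zaxinone roots, against 1.31, 1.95 and 1.20 CPM in mock roots, which overlapped, and its r of 0.29 was just inside the limit of the rule.

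The list of 13 glucosyltransferase loci was chosen by the study on these samples, so its direction at 24 h is not independent evidence. All 13 had an r of at least 1 in roots at 24 h and a median of 1.71, in 13 the libraries of the treatments did not overlap (9.37% of all transcripts tested), and 9 met the 24 h parts of the rule. Only 2 were members, since 7 of those 9 had an r of 0.3 or more at 2 h or 6 h. The largest early r was that of loc_os03g24430.1, whose r was already 2.39 at 2 h, then 1.26 at 6 h and 2.31 by 24 h. For loc_os02g11640.1 r was 1.68, 0.38 and 2.54 at those times. The crocetin glucosyltransferase locus loc_os01g08440.1 was outside by a narrow margin, its lowest zaxinone library being 1.49 times its highest mock library. A pair of members known here only by locus identifier lay next to listed loci by number, loc_os05g45080.1 beside loc_os05g45090 and loc_os07g13780.1 beside loc_os07g13770. No member was among the 24 loci of the study's sugar metabolism list or the 28 loci of its qRT-PCR primers. The study took the sugar metabolism list from genes that differed at 6 h in these samples. The rule removed transcripts with an r of 0.3 or more at 6 h, so the absence from that list was largely set by the selection and nothing is read from it. Of the 28 primer loci, 9 met the 24 h parts of the rule, and each of these had an r of 0.3 or more at 2 h or 6 h. Nothing is read from the absence of primer loci either.

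In the time course of the roots, the members did not share one pattern. In 45 of 66 the lowest zaxinone library of 24 h was above each of the other 15 root libraries, against 1.92% of the 28207 transcripts, an arrangement that the rule itself favours and from which nothing is read. In all 12 libraries of 2 h and 6 h, 12 members stayed under 1 CPM. Examples of these 12 were loc_os01g52900.1, at most 0.196 CPM before 24 h, and loc_os08g08100.1, at most 0.425 CPM. The mock roots of 24 h differed little from those of 2 h and 6 h in the middle of the set, with a median log2 ratio of 0.09 (0.00 over all transcripts at the level of the rule), but its range was -2.18 to 3.47. In 11 members the mock level at 24 h was over 1 log2 unit higher than before (2.59% of all at the level of the rule) and in 8 over 1 log2 unit lower (3.40% of all); the rule used these mock libraries.

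**Figure D3:**
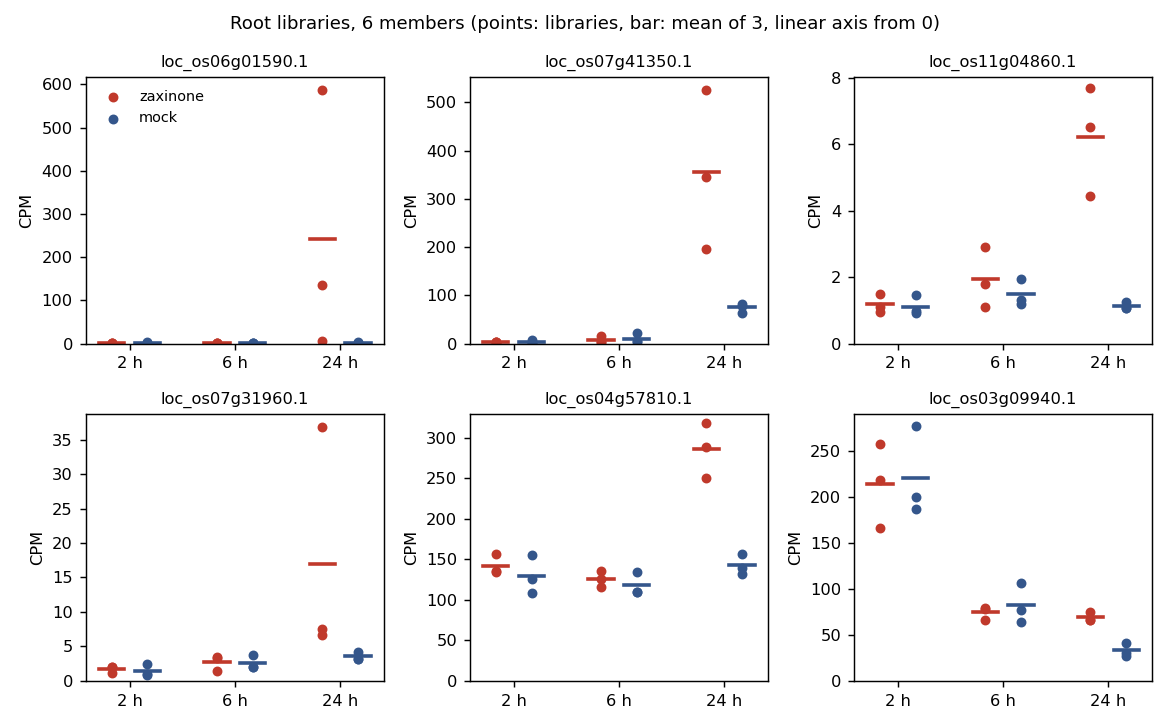
CPM of 6 members in the 18 root libraries by time, zaxinone in red and mock in blue; points are libraries and bars the means of 3, on linear axes from 0. For loc_os06g01590.1 the zaxinone points of 24 h spread from 5.08 to 587 CPM, while for loc_os03g09940.1 both treatments are below their levels of 2 h and the zaxinone points of 24 h lie at 66.1 to 74.8 CPM.

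In a subset the mock level at 24 h was lower than at the earlier times. In 8 of the 66 members the 3 mock libraries of 24 h were below all 12 root libraries of 2 h and 6 h (5.55% of the 28207 transcripts), and in 4 members the zaxinone mean of 24 h was below the mean of those 12 libraries. The clearest was loc_os03g09940.1, at 215 ± 45.9 CPM in zaxinone and 221 ± 49.0 CPM in mock roots at 2 h, and at 69.0 ± 5.03 CPM in zaxinone and 33.1 ± 7.58 CPM in mock roots at 24 h (SD, n = 3 each). Its zaxinone level at 24 h was thus below the level of both treatments at 2 h. The 3 zaxinone libraries of loc_os12g09640.1 had 1.97, 6.39 and 1.92 CPM at 24 h, against 1.26, 0.821 and 0.696 CPM in the mock libraries, and its 12 earlier libraries lay between 4.60 and 7.25 CPM. For loc_os04g31410.1 the zaxinone mean was 6.19 ± 1.86 CPM and the mock mean 2.80 ± 0.0573 CPM at 24 h, after 9.41 ± 1.19 CPM in zaxinone and 11.2 ± 1.21 CPM in mock roots at 6 h. The remaining 5 of the 8, singled out after their values were seen, were loc_os01g06580.1, loc_os02g33110.1, loc_os09g32770.1, loc_os10g20470.1 and loc_os01g16146.1.

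**Figure D4:**
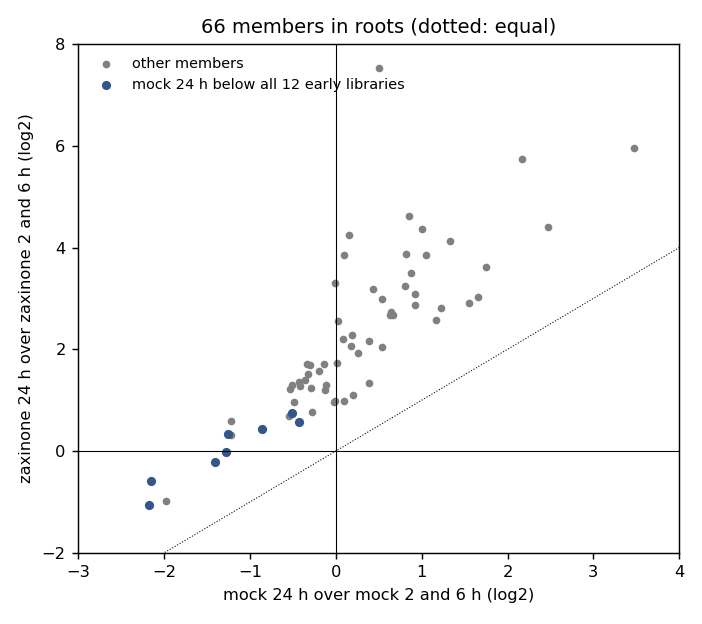
Each point is 1 of the 66 members in roots, with the log2 ratio of 24 h to the mean of 2 h and 6 h in zaxinone roots on the vertical axis and in mock roots on the horizontal axis. All points lie above the dotted line of equal ratios, as the rule requires, and the 8 blue points, whose mock libraries of 24 h are below all earlier ones, lie at the lower left.

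At the limit of the rule, members and non-members lay close together. Just inside, loc_os04g57810.1, loc_os04g31410.1 and loc_os02g12380.1 had an r of 1.003, 1.02 and 1.03 at 24 h. Just outside, with every other part of the rule met, loc_os02g01275.1, loc_os07g09610.1 and loc_os04g39230.1 had 0.97, 0.90 and 0.73. For loc_os02g12380.1 the zaxinone roots gave 85.2, 50.0 and 48.8 CPM and the mock roots 30.7, 30.5 and 28.5 CPM, and for loc_os02g01275.1 the zaxinone roots gave 3.12, 4.35 and 3.12 CPM and the mock roots 1.78, 1.21 and 1.68 CPM. The required gap between the libraries removed more: 639 transcripts met all other parts, and in 353 of them the zaxinone and mock libraries overlapped. A further 20 transcripts met the 24 h parts but had a larger early r between 0.3 and 0.4.

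The 66 members came from 66 loci spread over all 12 chromosomes, from 2 on each of chromosomes 8 and 11 to 12 on chromosome 1 (18.2%, against 14.3% of transcripts at the same level). In 3 pairs the locus numbers were within 100 of each other. On chromosome 8, loc_os08g08090.1 had 2.79, 4.97 and 1.12 CPM in zaxinone roots and 0.487, 0.145 and 0.450 CPM in mock roots, in the same order of libraries as its neighbour loc_os08g08100.1. On chromosome 4, loc_os04g54230.1 (17.3 ± 7.46 CPM in zaxinone and 4.95 ± 0.414 CPM in mock roots, SD, n = 3 each) lay beside loc_os04g54220.1, and on chromosome 1 loc_os01g11480.1 and loc_os01g11500.1 had an r of 2.56 and 1.89. Whether reads were shared between near-identical neighbours could not be examined in a table of counts, and these pairs are uncertain in that respect.

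In shoots, which had no part in choosing the members, 60 of the 66 were listed at 2 h, 58 at 6 h and 58 at 24 h, and 4 were in no shoot table. The filter on low counts kept 43, 36 and 39 members for testing at 2, 6 and 24 h. By edgeR, 0 of the tested members passed an adjusted p of 0.05 in either direction at 2, 6 or 24 h, where 0%, 0.00433% and 0% of all tested transcripts passed. At an unadjusted p under 0.05 the counts were 1 of 43 at 2 h (4.04% of all), 10 of 36 at 6 h (11.8% of all) and 6 of 39 at 24 h (3.95% of all). DESeq2 called 0 members at 2 h (0.0043% of all), 1 at 6 h (0.628% of all) and 0 at 24 h (0.0132% of all), the shares being of the transcripts tested by edgeR. It gave an adjusted p to 60, 24 and 58 members at 2, 6 and 24 h. The members' median log2 fold change at 2, 6 and 24 h was -0.03, -0.17 and -0.04, and that of all tested transcripts was 0.00 each time. No tested member had a log2 fold change of 1 or more in size at any time, the extremes being -0.85 at 6 h and 0.95 at 24 h.

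**Figure D5:**
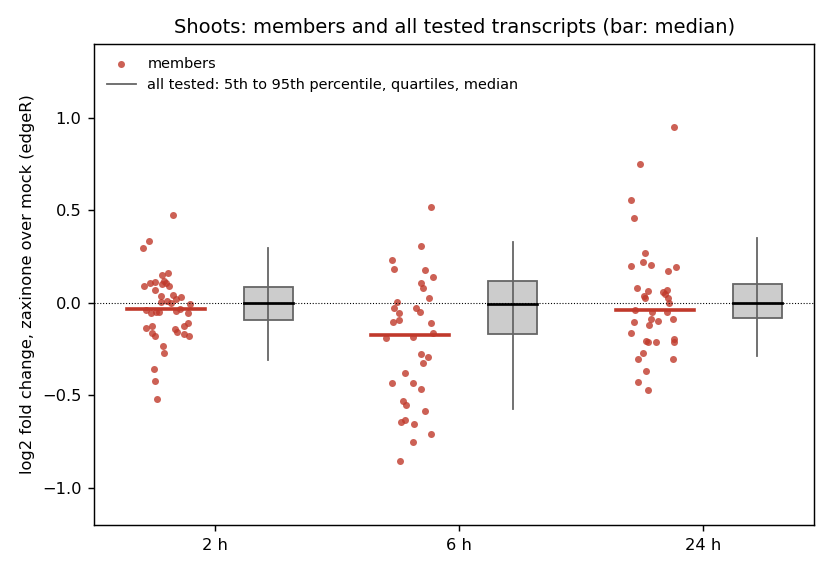
Log2 fold change of zaxinone over mock in shoots (edgeR) at 2, 6 and 24 h; red points are the 43, 36 and 39 members tested, red bars their medians, and grey boxes the quartiles of all tested transcripts with the 5th to 95th percentile as a line. The members centre near 0 at 2 h and 24 h and slightly lower, at -0.17, at 6 h.

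At 6 h in shoots most members leaned lower. Of the 36 members tested, 26 had a log2 fold change below 0, where the median over all 23084 tested transcripts was -0.004. The members were measured in the same 6 libraries and are not independent of each other. The quartiles of the log2 fold change were -0.48 and 0.01 over the members, and -0.17 and 0.12 over all tested transcripts. By edgeR, 9 members had an unadjusted p under 0.05 in the lower direction (7.37% of all tested transcripts) and 1 in the higher (4.47% of all). The smallest p was that of loc_os07g01020.1, at 80.6, 78.6 and 59.0 CPM in zaxinone shoots and 108, 93.0 and 99.3 CPM in mock shoots (log2 fold change -0.46 ± 0.11, SE; adjusted p = 0.270 by edgeR and 0.0236 by DESeq2). In roots of 24 h the same transcript had 81.7, 130.4 and 86.7 CPM with zaxinone and 44.6, 44.1 and 47.9 CPM with mock. The next, loc_os03g03500.1, was higher, with 8.06, 7.94 and 7.70 CPM in zaxinone shoots and 5.71, 5.58 and 5.23 CPM in mock shoots (log2 fold change 0.52 ± 0.14, SE; adjusted p = 0.284 by edgeR). For loc_os03g13030.2 the zaxinone shoots had 19.1, 22.4 and 14.0 CPM and the mock shoots 25.2, 24.0 and 30.3 CPM (adjusted p = 0.284 by edgeR). The libraries of these 3 did not overlap between the treatments, which held for 1 member upwards (8.69% of all) and 5 downwards (7.68% of all).

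The number of members called at 6 h depended on 1 library. The sign of the lean did not: with any 1 library left out, the members' median log2 fold change was -0.13 to -0.28. By library, however, the treatments overlapped. The members' median log2 CPM was 0.54, 0.74 and 0.06 in zaxinone shoots and 0.70, 0.61 and 0.72 in mock shoots. The SD between replicates of that median, 0.25, was larger than the size of the lean (-0.17). Zaxinone replicate 2 of the 6 h shoots was the shallowest shoot library, with 13229890 counts, and without it edgeR called 6 of 38 tested members, all lower (2.07% of all tested transcripts were called lower). They were loc_os01g06580.1, loc_os03g13030.2, loc_os03g52239.1, loc_os04g31410.1, loc_os07g01020.1 and loc_os07g31960.1, with log2 fold changes of -0.34 to -0.94 and adjusted p of 0.0367 to 0.0493. The part of its depth in this result was not tested.

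The glucosyltransferase transcript loc_os07g31960.1 had the smallest p at 2 h in shoots, with 8.44, 6.08 and 6.55 CPM in zaxinone and 11.5, 11.3 and 7.93 CPM in mock shoots, which overlapped (log2 fold change -0.52 ± 0.17, SE; adjusted p = 0.996 by edgeR). At 6 h its log2 fold change in shoots was -0.71 ± 0.22 (SE; adjusted p = 0.305 by edgeR). The second glucosyltransferase, loc_os11g04860.1, had the smallest p at 24 h, with 3.35, 4.14 and 4.15 CPM in zaxinone and 2.89, 2.31 and 2.75 CPM in mock shoots (log2 fold change 0.56 ± 0.19, SE; adjusted p = 0.9997 by edgeR). At 2 h the next-smallest p values belonged to loc_os01g16146.1 (log2 fold change 0.15 ± 0.09) and loc_os12g09640.1 (-0.36 ± 0.24), and at 24 h to loc_os04g57810.1 (-0.20 ± 0.08) and loc_os03g03500.1 (0.27 ± 0.11, SE), none below an adjusted p of 0.05.

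The members were not uniformly root transcripts. At 2 h, the mock roots were at least 1 log2 unit above the mock shoots in 23 of 66 members (26.9% of the transcripts at the level of the rule) and at least 1 log2 unit below them in 16 (13.5%), and the log2 ratio ranged from -4.14 to 8.59. The member most abundant in shoots was loc_os11g05050.1, with 659, 631 and 625 CPM in zaxinone and 553, 671 and 784 CPM in mock shoots at 2 h, where the treatments overlapped. At the other end, loc_os06g01590.1, first by r in roots, was listed in shoots only at 24 h, with 0, 0.0445 and 0.0384 CPM in zaxinone shoots and 0 counts in each of the 3 mock shoots, which allows up to 0.114 to 0.131 CPM (3 counts, counting error only). Its high level was thus seen in zaxinone roots of 24 h and in no other group of the series. Within that group it was seen in replicates 1 and 2 (136 and 587 CPM). Replicate 3 had 5.08 CPM, against up to 3.28 CPM in the mock roots of 24 h.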

How the data were processed

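RNA-seq of roots and shoots was deposited as 6 tables, 1 for each tissue and time, each with 6 libraries. According to the study's methods the authors trimmed reads with Trimmomatic, aligned them with HISAT2 to the O. sativa v7.0 genome of Phytozome and counted them per annotated gene with HTSeq; the tables list transcript identifiers. The deposited values used here are these raw counts, with no normalization. The tables also hold the authors' log2 fold changes and p-values, which were not used, and text copies with identical values. CPM was taken by library total. The members and lists were chosen with earlier results of these data known. Named transcripts followed a rule: members in the study's lists, the 8 largest by r and by level, the steadiest and most variable, those at the limit of the rule, the 3 smallest p in shoots at each time, and the extremes of shoot level. Tests used edgeR 4.0.16 (TMM, filterByExpr, quasi-likelihood, Benjamini-Hochberg over all transcripts of a table) on the 6 libraries of a tissue and time, in R 4.3.3. The SE of a log2 fold change was derived from the test, as its size over the square root of the F statistic. A run on simulated data, with no library standing apart, checked only the size and sign of the log2 fold changes. DESeq2 1.42.0, other size factors and filters, a replicate block and leaving out each library were the alternatives. Replicate libraries all differed beyond sampling noise (chi-square per degree of freedom of at least 5.25 in 36 pairs). Same-numbered zaxinone and mock libraries of the 2 h shoots deviated together (3 of 3 correlations over 0.1, 0.117 to 0.203). In none of the other 5 tables were all 3 correlations over 0.1, though single pairs there reached up to 0.310. Gene names could not be joined to the locus identifiers. Precision is limited by 3 libraries a group; members under 1 CPM in mock roots rest on few counts.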

Additional observations from a re-analysis of the deposited data

Results flagged for a closer look

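At 24 h loc_os04g57810.1 lay higher with zaxinone in every root library and lower in every shoot library, and the shoot difference did not pass the test. The shoot libraries had 29.0, 31.6 and 28.8 CPM in zaxinone and 35.4, 34.2 and 33.6 CPM in mock shoots (log2 fold change -0.20 ± 0.08, SE; adjusted p = 0.9997 by edgeR, and 0.644 or more under each alternative). In roots it had 289, 318 and 251 CPM in zaxinone and 139, 132 and 157 CPM in mock libraries. In shoots at 24 h, 1 of 39 tested members had all zaxinone libraries below all mock libraries, as did 4.13% of the 22786 transcripts tested. The difference between the tissues was not tested, because the root values chose the member.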

How the results depend on the processing

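The number of transcripts meeting the rule was 60 to 78 under both other scalings, a constant of 0.1 or 1 CPM, a zaxinone mean of at least 1 CPM and unlisted transcripts taken as 0. It was 52 with a zaxinone mean of at least 5 CPM or with an early r above -0.3 as well as under 0.3, and 43 with an r of at least 1.5. With medians in place of means, an alternative chosen after seeing the data, it was 46, of which 33 were among the 66. Leaving out 1 root library of 24 h gave 43 to 226: 126 without zaxinone replicate 1, 43 without zaxinone replicate 2, 226 without zaxinone replicate 3 and 131 without mock replicate 1. The count of members called in roots at 24 h was 0 by edgeR, 54 by DESeq2 and 0 to 26 with 1 library left out, 26 without zaxinone replicate 2 and 7 without zaxinone replicate 3. In shoots at 6 h it was 0 by edgeR, 1 by DESeq2 and 0 to 6 with 1 library left out. At 2 h and 24 h no alternative called a member. The members' median log2 fold change in shoots at 6 h was -0.17, -0.28 without zaxinone replicate 2 and -0.11 with at least 10 counts in every library; under each alternative at 2, 6 and 24 h it moved by less than the SD between replicates of the members' median log2 level (0.14, 0.25 and 0.15). Samples with the same replicate number deviated together in the shoots of 2 h (3 of 3 correlations over 0.1), but not in every pair of any other table (correlations of -0.27 to 0.31 over the 18 pairs, 7 over 0.1; 10 of 18 zaxinone libraries correlated best with the mock library of their own number). With the replicate block 0 members were called in roots at 24 h or in shoots at any time, and at 2 h the members' median log2 fold change was -0.01. The depth of zaxinone replicate 2 at 24 h, and the few counts in mock roots, limit the values of the lowest members.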
